A study of Mus musculus with 17 samples.

Results

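The genes described here are H19, Igf2, Cdkn1c, Phlda2, Ascl2, Kcnq1ot1 and Slc22a18, the imprinted genes of distal mouse chromosome 7 around H19-Igf2 and Phlda2. They were chosen by name as 7 of the 28670 genes in each sample table, and values of 6 of them were used, while Kcnq1ot1 was not analysed here. RNA sequencing of polyadenylated RNA gave 17 samples in 7 groups, which separate into 9 once strain is taken into account. The Nanog -/- cells were 129/B6 (v6.5) and comprised iPSC clone G2 (2 samples), iPSC clone G5 (2 samples) and the parental ESC line (2 samples), all at passage 6. The wild-type (WT) 129/B6 cells were partially reprogrammed cells (piPSC, 2 samples of clone B1, passage 6), 1 iPSC sample at passage 6 and 2 ESC samples at passages 10 to 15. The c57/b6 cells, all WT, were MEF (2 samples, passage 2), iPSC (2 samples, passages 10 to 15) and ESC (2 samples, passages 10 to 15). ESC are embryonic stem cells, iPSC are cells reprogrammed to pluripotency, and MEF are mouse embryonic fibroblasts.

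Per the labels' protocols, the Nanog -/- ESC were kept on feeder cells in 2i and LIF. Nanog -/- fibroblasts were taken at E12.5 from chimeric embryos, sorted for a constitutive GFP, and infected with retroviruses for murine Oct4, Sox2 and Klf4, either with c-Myc or lacking it. Picking of colonies was on day 20, and they were passaged on feeders in 2i and LIF, and MEF were grown in serum. The medium of the WT ESC is not given in the sources used here, so genotype cannot be told apart from culture or passage in a comparison with them. Each clone is a single line, the fibroblasts from which the Nanog -/- clones arose were not analysed here, and whether samples of a group came from separate cultures is not stated, so the p-values cover only the spread among the samples at hand, which may be technical. Strain and the code prefix of the samples coincide throughout, so they cannot be told apart.

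Imprinted genes are expressed mainly from 1 parental copy, which is set by DNA methylation laid down in the germ line and kept in the embryo. H19, a long noncoding RNA that also carries miR-675, is expressed from the maternal copy, and Igf2, a fetal growth factor, from the paternal copy, under a shared control region bound by CTCF. In the neighbouring domain Kcnq1ot1, a noncoding RNA of the paternal copy, silences genes that the maternal copy expresses. These include Cdkn1c, which encodes the cell cycle inhibitor p57, Phlda2, which restrains placental growth, Ascl2, a transcription factor of trophoblast, and Slc22a18, a membrane transporter. The tables hold a total per gene, so the parental copies were not separated.

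RefSeq (GRCm38.p6) gives windows from 250 bases before to 50 after the start for 5 of the 7 genes, 8 windows in all. Shown are the windows of Phlda2 and Ascl2, the genes that set Nanog-null ESC apart from the Nanog-null clones, of Slc22a18, which stood highest in piPSC, and the most downstream of the 4 Igf2 windows. Capitals mark TATAAA or GGGCGG, read on both strands, which do not overlap each other and occur in 13.6% and 35.7% of the 32851 windows of this length.
Phlda2, chr7:143502475-143502774, minus strand: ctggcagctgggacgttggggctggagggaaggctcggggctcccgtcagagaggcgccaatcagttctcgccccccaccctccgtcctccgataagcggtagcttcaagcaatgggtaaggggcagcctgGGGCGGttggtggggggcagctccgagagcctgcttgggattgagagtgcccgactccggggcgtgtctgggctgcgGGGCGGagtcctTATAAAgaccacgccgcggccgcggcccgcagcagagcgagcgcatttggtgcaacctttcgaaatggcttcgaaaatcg
Ascl2, chr7:142969215-142969514, minus strand: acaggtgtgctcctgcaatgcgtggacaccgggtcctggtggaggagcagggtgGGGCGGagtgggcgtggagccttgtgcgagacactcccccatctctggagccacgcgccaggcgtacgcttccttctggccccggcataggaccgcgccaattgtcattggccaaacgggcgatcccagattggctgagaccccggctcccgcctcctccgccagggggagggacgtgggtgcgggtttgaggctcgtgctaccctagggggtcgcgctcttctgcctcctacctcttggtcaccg
Slc22a18, chr7:143473539-143473838, plus strand: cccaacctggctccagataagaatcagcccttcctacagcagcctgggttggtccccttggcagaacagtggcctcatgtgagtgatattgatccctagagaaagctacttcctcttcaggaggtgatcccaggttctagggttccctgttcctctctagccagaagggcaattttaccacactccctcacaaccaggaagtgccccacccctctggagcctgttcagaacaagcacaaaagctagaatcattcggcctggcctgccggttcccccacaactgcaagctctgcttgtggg
Igf2, chr7:142657447-142657746, minus strand: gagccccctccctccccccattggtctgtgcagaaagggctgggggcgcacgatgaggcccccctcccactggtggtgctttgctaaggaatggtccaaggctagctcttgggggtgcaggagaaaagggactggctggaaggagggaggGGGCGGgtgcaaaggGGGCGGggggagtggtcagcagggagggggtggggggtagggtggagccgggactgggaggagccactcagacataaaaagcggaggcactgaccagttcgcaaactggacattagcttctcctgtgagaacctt
The Phlda2 window held 26 CG dinucleotides, 1 TATAAA and 2 GGGCGG, and 83.1% of all windows held fewer CG. The Ascl2 window held 23 CG and 1 GGGCGG, and 78.5% of windows held fewer CG. The Slc22a18 window held 2 CG and neither motif, and 14.1% of windows held fewer CG. The Igf2 window held 7 CG and 2 GGGCGG. The 8-base octamer ATGCAAAT, present in 1.74% of windows, was in none of the 8. H19 carries the 2 arms of miR-675, whose seed (bases 2 to 8) is in capitals and differs between the arms.
mmu-miR-675-5p, chr7:142577112-142577133, minus strand: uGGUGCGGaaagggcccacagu
mmu-miR-675-3p, chr7:142577078-142577099, minus strand: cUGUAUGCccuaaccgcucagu
The library kit does not capture mature miRNAs, and the Mir675 gene was listed at 0 in all 17 samples.

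All 6 genes were higher in Nanog-null ESC than in WT ESC of the same strain, and in both Nanog-null iPSC clones than in the WT iPSC sample. H19 was the most abundant of them per length, at 1292 to 2202 FPKM (fragments per kilobase of transcript, scaled to sequencing depth) in the 6 Nanog-null samples, against 63.4 to 71.2 FPKM in the 3 WT 129/B6 ESC and iPSC samples. Nanog-null ESC stood apart from both Nanog-null iPSC clones by high Phlda2 and Ascl2. The piPSC split the region, with H19 and Igf2 below every other sample and Cdkn1c and Slc22a18 at the highest means of the series. The WT c57/b6 ESC and iPSC had H19 and Igf2 levels that on a log scale lay nearer to those of the Nanog-null cells than to those of WT 129/B6 ESC and iPSC.

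**Figure D1:**
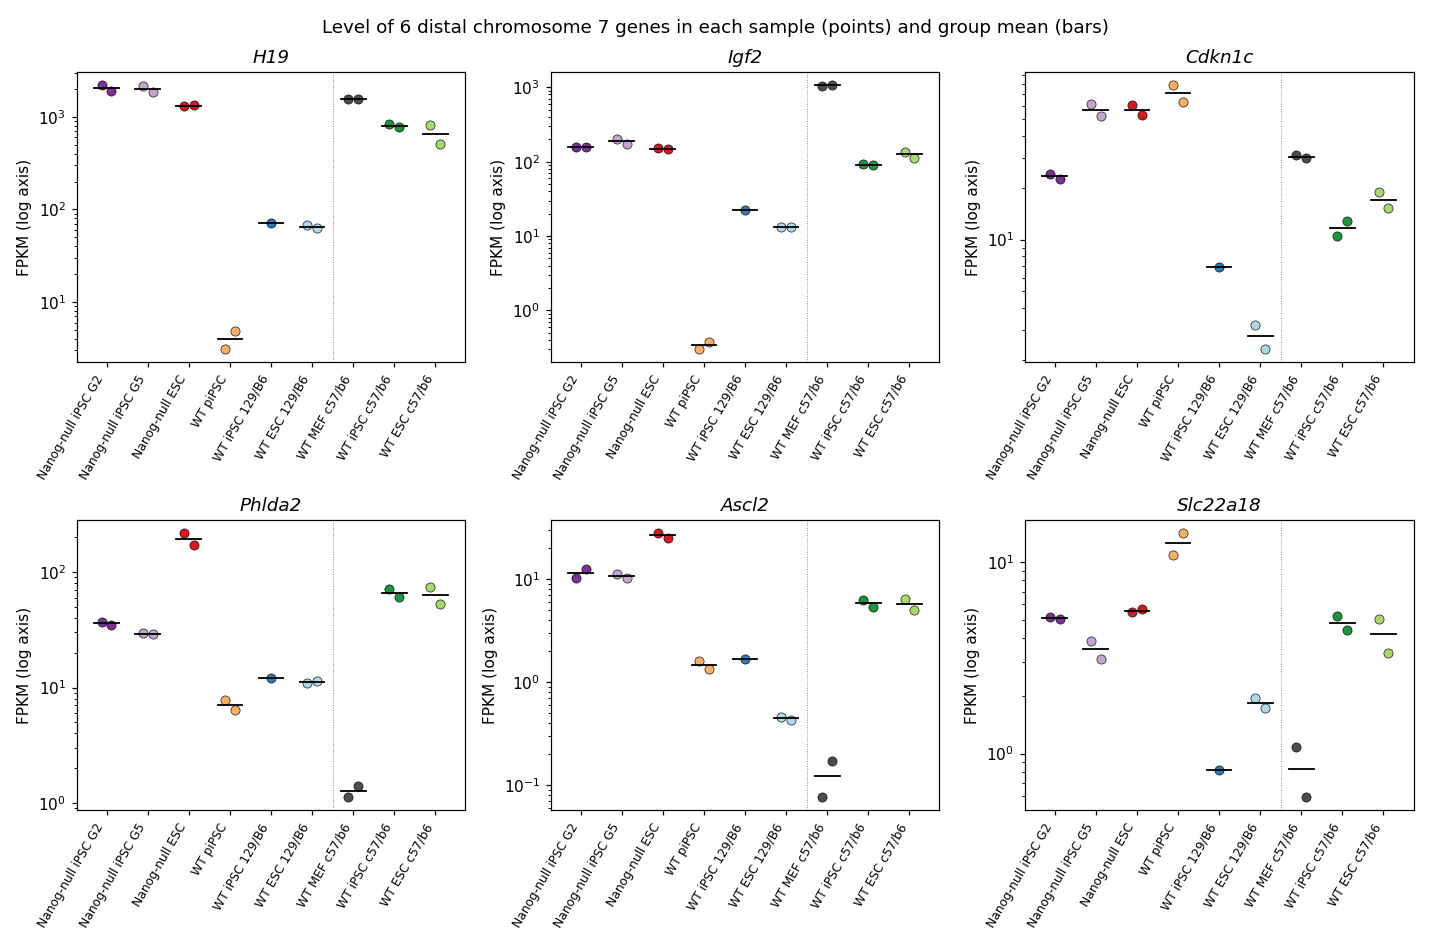
FPKM on a log axis for each of 6 genes, 1 point per sample, with the group mean as a bar; 129/B6 groups lie left of the dotted line and c57/b6 groups right of it. H19 ranged over 3.11 to 2202 FPKM, and the Nanog-null samples lay above the WT 129/B6 ESC and iPSC samples in all 6 panels.

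Total fragments per sample were 17682401 to 43501951 in 129/B6 and 7795960 to 30077204 in c57/b6. Nanog itself, the deleted gene, had 27.2 to 49.5 FPKM in Nanog-null samples, against 568 to 762 FPKM in the WT 129/B6 ESC and iPSC samples. Whether those fragments fall outside the deleted part was not tested. Pou5f1, which encodes the pluripotency factor Oct4, was at 507 to 613 FPKM in Nanog-null samples, against 640 to 760 FPKM in WT 129/B6 ESC and iPSC, and at 0 in MEF. All 7 pluripotency markers tested, Nanog among them, were lower in Nanog-null ESC than in WT 129/B6 ESC. Dppa5a averaged 1523 FPKM in Nanog-null ESC and 6551 in WT 129/B6 ESC, and Sox2 averaged 51.9 and 142. Sox2 averaged 41.6 FPKM in G2 and 39.1 in G5, against 156 in the WT 129/B6 iPSC sample. Zfp42 ran the other way there, at 113 FPKM in G2, 128 in G5 and 55.3 in that iPSC sample. In piPSC, Nanog had 2.91 and 3.12 FPKM, and 1 or 2 of 7 pluripotency markers were under 1 FPKM. Pou5f1 reads there (6975 and 7303 FPKM) cannot be told apart from a retroviral Oct4 copy. The same limit holds for Pou5f1 and Sox2 reads in G2 and G5, which were made with retroviral Oct4 and Sox2. A sum of 18 fibroblast markers was 803 to 1803 FPKM in Nanog-null samples, 429 to 526 FPKM in WT 129/B6 ESC and iPSC, 132 to 146 FPKM in c57/b6 ESC and iPSC and 5567 and 5645 FPKM in MEF. In such bulk samples, fewer cells of a type and less RNA per cell cannot be told apart.

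H19 had 2202 and 1888 FPKM in Nanog-null iPSC G2, 2134 and 1854 in G5, and 1292 and 1353 in Nanog-null ESC. It had 3.11 and 4.82 FPKM in WT piPSC, 71.2 in WT 129/B6 iPSC and 67.1 and 63.4 in WT 129/B6 ESC. In c57/b6 it had 1561 and 1574 FPKM in MEF, 829 and 778 in iPSC, and 813 and 506 in ESC. By mean level the order was G2, G5, MEF, Nanog-null ESC, c57/b6 iPSC, c57/b6 ESC, 129/B6 iPSC, 129/B6 ESC and piPSC, and the values of G2 overlapped those of G5, as did those of c57/b6 iPSC and ESC.

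Igf2 had 159 and 156 FPKM in G2, 205 and 174 in G5, and 152 and 146 in Nanog-null ESC. It had 0.303 and 0.378 FPKM in WT piPSC, from 36 fragments in each sample, 22.5 in WT 129/B6 iPSC and 13.1 in both WT 129/B6 ESC samples. Among c57/b6 samples it had 1050 and 1071 FPKM in MEF, 93.3 and 89.1 in iPSC, and 137 and 113 in ESC. MEF were the highest and piPSC the lowest for this growth factor, and no pair of groups next to each other in the order overlapped. The antisense transcript Igf2os had 9.003 to 9.39 FPKM in Nanog-null ESC, 5.28 to 6.58 in the Nanog-null clones and 0.0444 to 0.171 in WT 129/B6 ESC and iPSC. Since the kit does not mark strand, fragments of Igf2 and of its antisense partner cannot be told apart.

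Cdkn1c had 24.0 and 22.6 FPKM in G2, 61.6 and 52.1 in G5, and 60.5 and 53.3 in Nanog-null ESC. Levels were 79.1 and 63.4 FPKM in WT piPSC, 6.91 in WT 129/B6 iPSC and 3.18 and 2.31 in WT 129/B6 ESC. The c57/b6 samples had 31.2 and 29.6 FPKM in MEF, 10.5 and 12.8 in iPSC, and 18.9 and 15.2 in ESC. G5 and Nanog-null ESC overlapped, while G2 lay apart from both and below MEF.

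Phlda2 had 36.8 and 35.1 FPKM in G2, 29.7 and 29.0 in G5, and 217 and 170 in Nanog-null ESC. It had 7.77 and 6.37 FPKM in WT piPSC, 12.03 in WT 129/B6 iPSC and 10.8 and 11.4 in WT 129/B6 ESC. In c57/b6 it had 1.12 and 1.42 FPKM in MEF, from 6 and 17 fragments, 71.3 and 61.4 in iPSC, and 74.6 and 52.5 in ESC. Nanog-null ESC were the highest and MEF the lowest, and only the c57/b6 iPSC and ESC overlapped.

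Ascl2 had 10.2 and 12.6 FPKM in G2, 11.2 and 10.2 in G5, and 27.8 and 25.2 in Nanog-null ESC. Levels were 1.61 and 1.33 FPKM in WT piPSC, 1.67 in WT 129/B6 iPSC and 0.460 and 0.430 in WT 129/B6 ESC. The c57/b6 values were 0.0767 and 0.171 FPKM in MEF, from 1 and 5 fragments, 6.31 and 5.41 in iPSC, and 6.45 and 5.06 in ESC. The order began and ended as that of Phlda2, with Nanog-null ESC at the top and MEF at the bottom. The values of G2 and G5 overlapped, as did those of c57/b6 iPSC and ESC.

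Slc22a18 had 5.17 and 5.00 FPKM in G2, 3.87 and 3.12 in G5, and 5.45 and 5.69 in Nanog-null ESC. Levels were 10.9 and 14.1 FPKM in WT piPSC, 0.817 in WT 129/B6 iPSC and 1.96 and 1.73 in WT 129/B6 ESC. Among c57/b6 samples, there were 1.08 and 0.591 FPKM in MEF, from 5 and 14 fragments, 5.19 and 4.39 in iPSC, and 5.06 and 3.34 in ESC. This transporter had the narrowest span of the 6 genes, and its piPSC values lay above all others. In the middle of the order G2, c57/b6 iPSC, c57/b6 ESC and G5 each overlapped the next, and the 129/B6 iPSC value lay within those of MEF.

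The first comparison asked how the region differs in cells that lack Nanog, the pluripotency transcription factor. All 6 genes were higher in Nanog-null ESC than in WT 129/B6 ESC, where 61.9% of the 18077 genes tested passed the threshold in either direction and 32.8% were higher. Changes are log2 fold changes ± SE from edgeR's quasi-likelihood test with 2 samples in each group, and a gene was called at a Benjamini-Hochberg adjusted p under 0.05 over all genes. Ascl2 had the largest of them, 5.91 ± 0.19 (adjusted p 8.5e-15), on 20 and 15 fragments in WT 129/B6 ESC. Over the alternatives its change was 4.25 to 5.97. Cdkn1c was higher by 4.38 ± 0.17 (adjusted p 1.1e-13) and H19 by 4.33 ± 0.20 (adjusted p 9.5e-13). Phlda2 was higher by 4.16 ± 0.16 (adjusted p 4.9e-14) and Igf2 by 3.58 ± 0.12 (adjusted p 1.5e-14). Slc22a18 had the smallest change, 1.61 ± 0.18 (adjusted p 2.7e-07). The 2 groups did not overlap for any of the 6.

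**Figure D2:**
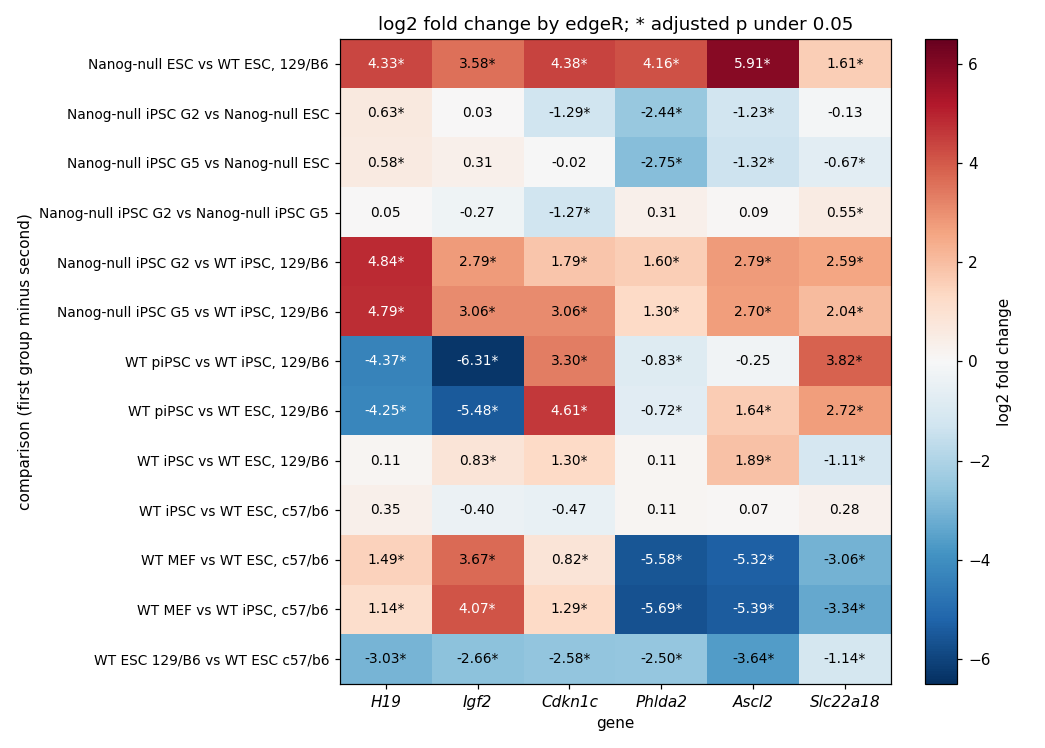
log2 fold change by edgeR (colour and number, first group of each row minus the second) for 6 genes in 13 comparisons, with an asterisk at an adjusted p under 0.05. The rows that set Nanog-null cells against WT 129/B6 cells hold changes of 1.30 to 5.91, all above 0, while the piPSC rows hold both signs.

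Fibroblast markers moved with this comparison. Their sum was 21.1% of the MEF mean in both Nanog-null ESC samples, against 7.95% and 7.66% in WT 129/B6 ESC, and 18 of 18 markers were at 1 FPKM or above in Nanog-null ESC. Col1a1, the main fibroblast collagen of the list, averaged 211 FPKM in Nanog-null ESC, 48.6 FPKM in WT 129/B6 ESC and 1239 FPKM in MEF. The MEF were c57/b6, so each comparison of 129/B6 cells with MEF here crosses strain and code prefix. H19 reached 82.4% and 86.4% of its MEF mean in Nanog-null ESC, above the share of the marker sum. Igf2 reached 14.3% and 13.8% of its MEF mean there, below that share, and the part of fibroblast RNA in its change was not tested. Phlda2, Ascl2 and Slc22a18 had lower means in MEF than in either ESC group, and Cdkn1c averaged 56.9 FPKM in Nanog-null ESC, against 30.4 FPKM in MEF. Markers of extraembryonic cells had higher sums too, and their part in these changes was not tested. The 12 primitive endoderm markers summed to 186 and 188 FPKM in Nanog-null ESC, against 10.9 and 9.92 FPKM in WT 129/B6 ESC. Of 12 tested entries, 11 were higher and 0 lower. Gata6, a defining factor of that lineage, averaged 18.5 FPKM in Nanog-null ESC and 0.308 FPKM in WT 129/B6 ESC. Afp and Apoa1, of its later derivatives, stayed under 1 FPKM in both. Ttr and Cubn, of the same list, averaged 2.71 and 3.37 FPKM in Nanog-null ESC, against 0 and 0.0291 FPKM in WT 129/B6 ESC. The 12 trophoblast markers summed to 115 and 127 FPKM in Nanog-null ESC, against 50.2 and 50.3 FPKM in WT 129/B6 ESC. Of 10 tested, 6 were higher, 1 was lower and 3 were not called. Plac1, a placental gene, averaged 22.8 FPKM in Nanog-null ESC and 0.0954 FPKM in WT 129/B6 ESC, while Tpbpa, a marker of spongiotrophoblast, was listed at 0 in both. Eomes ran the other way, averaging 1.29 FPKM in Nanog-null ESC and 3.38 FPKM in WT 129/B6 ESC. The 7 mesoderm markers summed to 2.20 and 2.32 FPKM in Nanog-null ESC, against 1.38 and 1.35 FPKM in WT 129/B6 ESC.

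**Figure D3:**
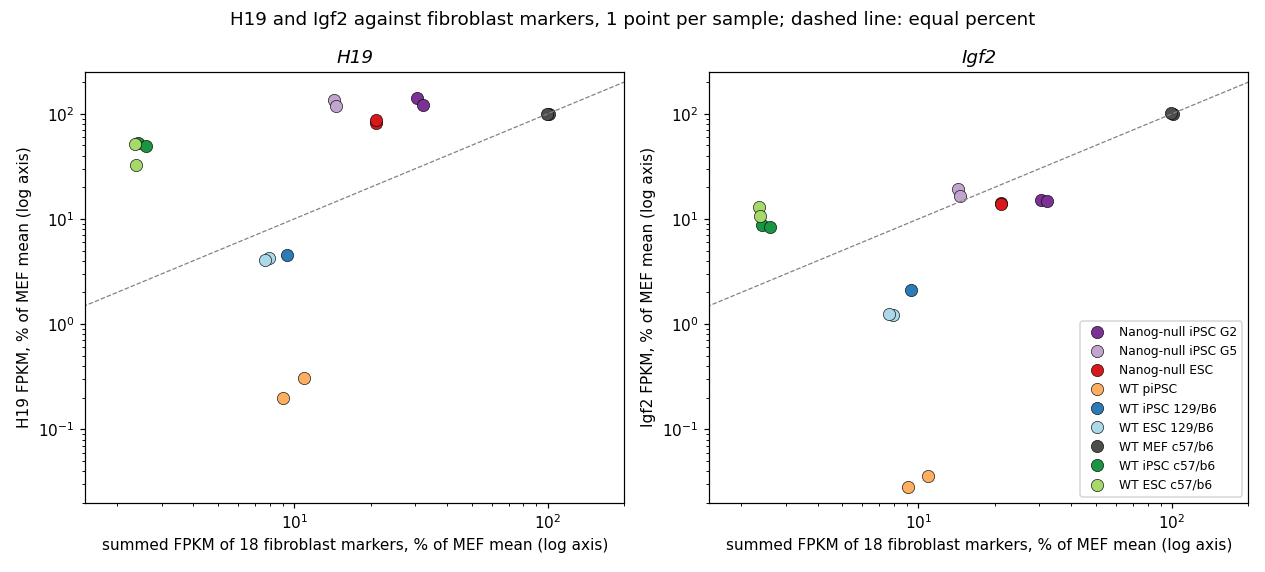
H19 (left) and Igf2 (right) as percent of their MEF mean against the summed FPKM of 18 fibroblast markers as percent of the MEF mean, both on log axes, 1 point per sample; the dashed line marks equal percent. H19 lay above the line in Nanog-null and c57/b6 ESC and iPSC samples, and Igf2 lay below it in Nanog-null ESC (14.3% and 13.8% at 21.1%) and in G2.

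In the neighbourhood of these genes, the other 20 tested entries of the same part of chromosome 7 (19 genes, since the symbol Tnfrsf22 has 2 entries) held 10 that were higher and 5 that were lower in Nanog-null ESC than in WT 129/B6 ESC. Their median change was 1.18, or 0.69 once Syt8, at 0 in WT 129/B6 ESC, was held to the limit set by 3 fragments, against 0.05 over all genes tested. Igf2os averaged 9.20 FPKM in Nanog-null ESC and 0.0543 FPKM in WT 129/B6 ESC. Th, which encodes tyrosine hydroxylase and lies next to Ins2, averaged 8.59 FPKM in Nanog-null ESC and 0.0451 FPKM in WT 129/B6 ESC. Tspan32, a tetraspanin gene beside Ascl2, averaged 8.96 FPKM in Nanog-null ESC and 0.646 FPKM in WT 129/B6 ESC. Tnnt3, a muscle troponin gene on the H19 side, averaged 8.14 FPKM in Nanog-null ESC and 0.0891 FPKM in WT 129/B6 ESC. Of imprinted genes elsewhere in the genome, 15 were higher and 2 lower of 21 tested, with a median of 1.16. Among them Peg3, Mest and Sgce, all expressed from the paternal copy, were higher by 3.51 ± 0.41, 2.32 ± 0.17 and 2.18 ± 0.11.

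Of 13 genes around the IGF2 protein (the related ligand Igf1, receptors, their adaptors, binding proteins and RNA-binding proteins of its transcript), 8 were higher and 4 lower in Nanog-null ESC than in WT 129/B6 ESC. Igfbp2, an IGF-binding protein, averaged 41.1 FPKM in Nanog-null ESC and 513 FPKM in WT 129/B6 ESC (log2 change -3.62 ± 0.16). Igfbp3 and Igfbp5, of the same family, averaged 48.0 and 7.20 FPKM in Nanog-null ESC, against 8.13 and 0.622 FPKM in WT 129/B6 ESC. Of 14 genes that keep or erase imprints, 4 were higher and 4 lower. Dnmt3l, the cofactor of the methyltransferases that set imprints in germ cells, averaged 130 FPKM in Nanog-null ESC and 2.87 FPKM in WT 129/B6 ESC (log2 change 5.50 ± 0.16). Dnmt3b, a methyltransferase that adds new methylation, averaged 61.4 FPKM in Nanog-null ESC and 3.38 FPKM in WT 129/B6 ESC. Dppa3 and Zfp57, which protect imprints in the early embryo, had log2 changes of -2.00 ± 0.16 and -0.97 ± 0.11.

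The second comparison asked whether reprogrammed Nanog-null clones match the Nanog-null ESC. Phlda2 and Ascl2 were lower in both clones than in Nanog-null ESC, with no overlap of samples. In G2, Phlda2 was lower, with a log2 change of -2.44 ± 0.14 (adjusted p 8.4e-10) and Ascl2 at -1.23 ± 0.13 (adjusted p 1.5e-06). In G5, Phlda2 was lower, at -2.75 ± 0.14 (adjusted p 9.6e-11) and Ascl2 at -1.32 ± 0.13 (adjusted p 2.6e-07). Both clones still lay above the WT 129/B6 iPSC and ESC samples for these genes. In G2, 4 of 6 genes were called, where 17.7% of all genes were, and in G5 also 4 of 6, where 24.3% were. Primitive endoderm markers had lower sums in the clones too, at 119 and 135 FPKM in G2 and 107 and 111 FPKM in G5, against 186 and 188 FPKM in Nanog-null ESC. Of 12 tested entries, 0 were higher and 6 lower in G2, and 0 were higher and 8 lower in G5. Lama1 averaged 41.7 FPKM in G2 and 41.1 in G5, against 86.4 in Nanog-null ESC. Gata6, Pdgfra and Sox7 had higher means in G2 (20.0, 12.3 and 1.56 FPKM) than in Nanog-null ESC (18.5, 10.9 and 1.30 FPKM). Trophoblast markers summed to 106 and 112 FPKM in G2 and 161 and 183 FPKM in G5, against 115 and 127 FPKM in Nanog-null ESC, with 1 higher and 2 lower of 10 tested in G2 and 4 higher and 4 lower in G5. Of 18 fibroblast markers, 12 were higher and 0 lower in G2 than in Nanog-null ESC, while 0 were higher and 10 lower in G5. The part of these lists in the changes was not tested.

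Cdkn1c set the 2 clones apart. It was lower in G2 than in Nanog-null ESC, with a log2 change of -1.29 ± 0.14 (adjusted p 3.2e-06), and in G5 the change was -0.02 ± 0.14 (adjusted p 0.94). Between the clones, G2 against G5, Cdkn1c differed by -1.27 ± 0.14 (adjusted p 4.9e-06), which held under all 11 alternatives. This was 1 of 2 genes of the 6 called between the clones, where 12% of all genes were called. The other was Slc22a18, higher in G2 by 0.55 ± 0.17 (adjusted p 0.039). That call was lost on leaving out any 1 of the 4 samples, with changes of 0.43 (without the second G5 sample) to 0.68 (without the first) and adjusted p of 0.0804 to 0.315. H19, Igf2, Phlda2 and Ascl2 differed between G2 and G5 by 0.05 ± 0.17, -0.27 ± 0.11, 0.31 ± 0.14 and 0.09 ± 0.13, none of them called. Of these, Igf2 passed the threshold under 3 of the 11 alternatives and Phlda2 under 1. The fibroblast marker sum was 1707 and 1803 FPKM in G2, against 803 and 817 FPKM in G5. By their sum, trophoblast markers ran in the direction of Cdkn1c, at 106 and 112 FPKM in G2, against 161 and 183 FPKM in G5. Of 10 tested, 1 was higher in G2, 3 were lower and 6 were not called. Krt7, a keratin gene, had the largest difference in mean FPKM of the list, at 44.4 FPKM in G2 and 100 FPKM in G5. Cdx2, Gata3 and Gcm1 had higher means in G2 (4.38, 3.11 and 7.61 FPKM) than in G5 (3.13, 2.51 and 5.61 FPKM), and the other markers had lower means in G2. The part of either list in the difference between the clones was not tested.

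H19 was a little higher in both clones than in Nanog-null ESC, by 0.63 ± 0.18 in G2 (adjusted p 0.016) and 0.58 ± 0.18 in G5 (adjusted p 0.020). These calls rested on single samples. Without the first or second Nanog-null ESC sample the adjusted p was 0.132 or 0.0904 for G2 and 0.135 or 0.0908 for G5, and without the first sample of the clone it was 0.177 for G2 and 0.175 for G5. By limma it was 0.0655 for G2 and 0.0643 for G5. Igf2 was 0.03 ± 0.11 in G2 (adjusted p 0.89) and 0.31 ± 0.11 in G5 (adjusted p 0.0503, above the threshold), with an adjusted p of 0.0366 without the second G5 sample and 0.00417 by DESeq2. Slc22a18 was lower in G5 than in Nanog-null ESC, at -0.67 ± 0.17 (adjusted p 0.0051). Its adjusted p was 0.0839 without the second Nanog-null ESC sample and 0.0859 without the second G5 sample, and 0.0504 by limma. In G2 its change was -0.13 ± 0.16 (adjusted p 0.66).

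Of the 20 neighbouring entries, 5 were higher and 6 lower in G2 than in Nanog-null ESC, and 4 were higher and 9 lower in G5. Th and Tspan32 were among the lower ones in both clones. Th had log2 changes of -1.95 ± 0.39 in G2 and -1.53 ± 0.38 in G5. Tspan32 had -1.50 ± 0.16 in G2 and -0.92 ± 0.15 in G5. Dnmt3l was lower in both as well, at 39.1 FPKM in G2 and 23.0 FPKM in G5, against 130 FPKM in Nanog-null ESC. Plagl1, an imprinted zinc finger gene elsewhere in the genome, averaged 33.8 FPKM in G2, 3.98 FPKM in G5 and 14.9 FPKM in Nanog-null ESC, and differed between the clones by 3.01 ± 0.21.

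Set against WT iPSC of the same strain, both Nanog-null clones were higher for all 6 genes. The WT group was 1 sample, which the fit assumes to vary like the other groups. In G2, the log2 changes were 4.84 ± 0.28 for H19 and 2.79 ± 0.16 for Igf2. For Ascl2, Slc22a18, Cdkn1c and Phlda2 they were 2.79 ± 0.21, 2.59 ± 0.26, 1.79 ± 0.20 and 1.60 ± 0.19 in G2. In G5, they were 4.79 ± 0.28 for H19 and 3.06 ± 0.16 for Igf2. For Cdkn1c, Ascl2, Slc22a18 and Phlda2 they were 3.06 ± 0.21, 2.70 ± 0.21, 2.04 ± 0.27 and 1.30 ± 0.19 in G5. The largest adjusted p among these was 1.3e-05, for Phlda2 in G5, and 58% of all genes were called in G2 and 55.7% in G5, with 29.7% higher in G2 and 28.3% in G5. The fibroblast marker sum was 526 FPKM in the WT iPSC sample, under that of either clone, and H19 was 118% to 140% of its MEF mean in the clones, where the sum was 14.3% to 32.2%. These shares cross strain and code prefix, since the MEF were c57/b6. Primitive endoderm markers summed to 107 to 135 FPKM in the clones, against 6.22 FPKM in the WT iPSC sample, with 10 higher and 0 lower of 12 tested entries in each clone. Trophoblast markers summed to 106 to 183 FPKM in the clones, against 32.7 FPKM in the WT iPSC sample, with 7 higher and 1 lower of 10 tested in each. The part of either list in these changes was not tested.

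Partially reprogrammed cells, 2 samples of the single clone B1, were next set against WT 129/B6 cells. H19 and Igf2 were lower in piPSC than in WT 129/B6 ESC, with log2 changes of -4.25 ± 0.21 (adjusted p 5.6e-13) and -5.48 ± 0.16 (adjusted p 2.5e-16). Cdkn1c and Slc22a18 were higher by 4.61 ± 0.17 (adjusted p 9.7e-15) and 2.72 ± 0.18 (adjusted p 3.3e-11). Ascl2 was higher by 1.64 ± 0.25 (adjusted p 1.0e-05) and Phlda2 lower, at -0.72 ± 0.18 (adjusted p 0.0013). All 6 were called, where 72.6% of all genes were called, and the median of all genes was itself -0.17, or -0.10 with DESeq2's scaling, which does not turn the sign of any of the 6. Against the WT 129/B6 iPSC sample the changes were -4.37 ± 0.23 for H19, -6.31 ± 0.17 for Igf2, 3.30 ± 0.21 for Cdkn1c, 3.82 ± 0.26 for Slc22a18 and -0.83 ± 0.21 for Phlda2, where 69.6% of all genes were called. Ascl2 had -0.25 ± 0.23 there (adjusted p 0.35). These comparisons share the piPSC samples.

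In piPSC the fibroblast marker list did not move as 1 group. It summed to 508 and 612 FPKM, against 446 and 429 FPKM in WT 129/B6 ESC, but 9 and 11 of the 18 markers were under 1 FPKM in the piPSC samples and Col1a1 averaged 0.342 FPKM. Primitive endoderm markers summed to 21.9 and 22.2 FPKM in piPSC, against 10.9 and 9.92 FPKM in WT 129/B6 ESC (3 higher and 4 lower of 12 tested entries), and trophoblast markers to 30.9 and 41.5 FPKM, against 50.2 and 50.3 FPKM (3 higher and 4 lower of 10). H19 and Igf2 were at 0.198% to 0.308% and 0.0286% to 0.0357% of their means in the c57/b6 MEF. Of the 20 neighbouring entries, 12 were higher and 5 lower in piPSC than in WT 129/B6 ESC. Tspan32 averaged 47.4 FPKM in piPSC and 0.646 FPKM in WT 129/B6 ESC, and Lsp1, a gene of leukocyte actin regulation on the H19 side, averaged 47.3 FPKM in piPSC and 1.71 FPKM in WT 129/B6 ESC. Genes that keep or erase imprints were mostly lower, 11 of 14, with Dppa3 at 0.311 FPKM in piPSC and 127 FPKM in WT 129/B6 ESC. Imprinted genes elsewhere were lower in 11 and higher in 5 of 21. Meg3, a maternally expressed noncoding RNA, averaged 0.155 FPKM in piPSC and 51.9 FPKM in WT 129/B6 ESC. Igfbp2 averaged 3.94 FPKM in piPSC and 513 FPKM in WT 129/B6 ESC.

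WT iPSC were set against WT ESC in each strain. In 129/B6, 4 of the 6 genes were called, where 32.9% of all genes were. Igf2, Cdkn1c and Ascl2 were higher in iPSC by log2 changes of 0.83 ± 0.14 (adjusted p 1.0e-04), 1.30 ± 0.21 (adjusted p 8.9e-05) and 1.89 ± 0.29 (adjusted p 5.4e-05). Slc22a18 was lower, at -1.11 ± 0.29 (adjusted p 0.0061), and without the first WT ESC sample its change was -0.90 with an adjusted p of 0.0624. H19 and Phlda2 differed by 0.11 ± 0.22 and 0.11 ± 0.20 (adjusted p 0.73 for each). Fibroblast markers moved the same way as these 3 genes, with 9 higher and 0 lower of 18 in iPSC, a median log2 change of 0.64, and a sum of 526 FPKM in the iPSC sample, against 446 and 429 FPKM in ESC. Primitive endoderm markers had 0 higher and 2 lower of 12 tested entries, and trophoblast markers 1 higher and 3 lower of 10. The part of these lists was not tested, and all of this rests on 1 iPSC sample.

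**Figure D4:**
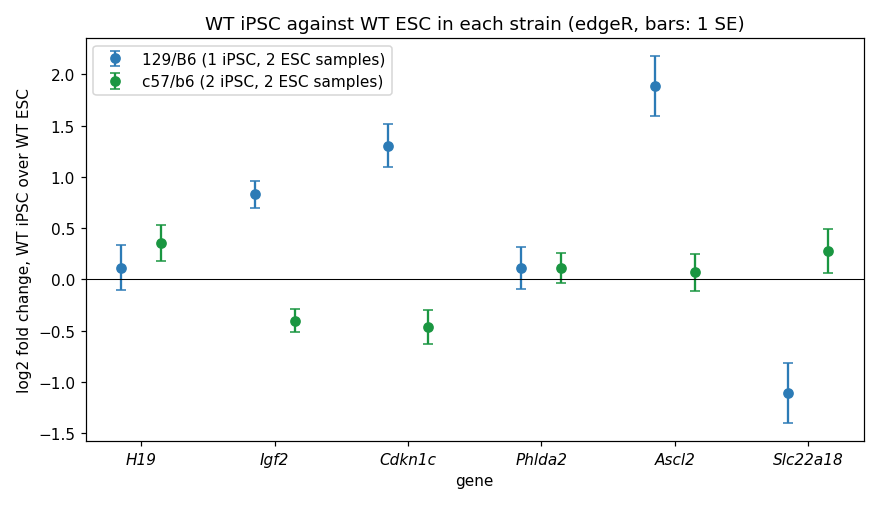
log2 fold change of WT iPSC over WT ESC (edgeR, bars are 1 SE) for 6 genes in 129/B6 (1 iPSC and 2 ESC samples) and c57/b6 (2 and 2 samples). Cdkn1c stood at 1.30 in 129/B6 and -0.47 in c57/b6, and H19 and Phlda2 lay close together in both strains.

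In c57/b6, none of the 6 was called by edgeR, where 0.266% of all genes (48) were and 2161 had an unadjusted p under 0.05. The changes were 0.35 ± 0.18 for H19, -0.40 ± 0.11 for Igf2, -0.47 ± 0.17 for Cdkn1c, 0.11 ± 0.15 for Phlda2, 0.07 ± 0.18 for Ascl2 and 0.28 ± 0.21 for Slc22a18. Their adjusted p ran over 0.16 to 0.94. At an unadjusted p under 0.05, 2 of the 6 passed. The fibroblast marker sum was 136 and 146 FPKM in c57/b6 iPSC, against 132 and 133 FPKM in c57/b6 ESC. By DESeq2, 1 gene was called, Igf2, with an adjusted p of 7.4e-04. The c57/b6 ESC samples differed from each other, with H19 at 813 and 506 FPKM, and without the first of them Igf2 was called (-0.48, adjusted p 5.1e-04) and 3546 genes were called in all.

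The difference between strains in the iPSC against ESC change was called for 4 genes, where 18% of all genes were. Igf2, Cdkn1c and Ascl2 changed more in 129/B6, by 1.23 ± 0.18 (adjusted p 7.5e-05), 1.77 ± 0.27 (adjusted p 1.5e-04) and 1.82 ± 0.34 (adjusted p 9.8e-04). Slc22a18 differed by -1.38 ± 0.36 (adjusted p 0.011), with an adjusted p of 0.0598 without the first 129/B6 WT ESC sample. H19 and Phlda2 differed by -0.24 ± 0.28 and -0.00 ± 0.26 and were not called. Of 18 fibroblast markers, 6 had a larger change in 129/B6 and 0 a smaller one, and their part was not tested. The lone 129/B6 iPSC sample enters each of these.

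WT ESC of the 2 strains differed at all 6 genes, which were lower in 129/B6 than in c57/b6, where 62.2% of all genes were called and 30% were lower. Ascl2 and H19 had log2 changes of -3.64 ± 0.25 (adjusted p 2.5e-10) and -3.03 ± 0.19 (adjusted p 9.5e-11). Igf2, Cdkn1c and Phlda2 had -2.66 ± 0.12, -2.58 ± 0.19 and -2.50 ± 0.16, and Slc22a18 had -1.14 ± 0.23 (adjusted p 2.0e-04). The fibroblast marker sum ran the other way, at 446 and 429 FPKM in 129/B6 ESC, against 132 and 133 FPKM in c57/b6 ESC. Of its 18 markers, 12 were higher and 3 lower in 129/B6. Fn1 had the largest difference in FPKM, averaging 224 FPKM in 129/B6 ESC and 28.7 in c57/b6 ESC. Twist1, Prrx1 and Twist2 had lower means in 129/B6 ESC (1.23, 2.63 and 0.652 FPKM) than in c57/b6 ESC (7.68, 7.64 and 1.97 FPKM). Primitive endoderm markers moved with the 6 genes, at 10.9 and 9.92 FPKM in 129/B6 ESC, against 24.6 and 30.5 FPKM in c57/b6 ESC, with 8 lower and 1 higher of 12 tested entries. Trophoblast markers summed to 50.2 and 50.3 FPKM in 129/B6 ESC, against 55.3 and 50.01 FPKM in c57/b6 ESC. Single markers moved in both directions, with 3 higher and 4 lower in 129/B6 of 10 tested. Krt7 averaged 3.06 FPKM in 129/B6 ESC and 26.1 in c57/b6 ESC, and Tfap2c averaged 31.5 and 15.2. The part of these cell types in the strain difference was not tested. Of the 20 neighbouring entries 4 were higher and 11 lower in 129/B6, and of 14 genes that keep or erase imprints 9 were higher and 3 lower. Dnmt3l averaged 2.87 FPKM in 129/B6 ESC and 230 FPKM in c57/b6 ESC (log2 change -6.25 ± 0.17), while Dnmt1, which copies methylation at replication, averaged 59.4 FPKM in 129/B6 ESC and 16.7 FPKM in c57/b6 ESC. The strain cannot be told apart from the code prefix of the samples or from culture here.

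Fibroblasts had the region in a split of their own. MEF were higher than c57/b6 ESC for Igf2 by 3.67 ± 0.12 (adjusted p 1.8e-15), H19 by 1.49 ± 0.18 (adjusted p 2.6e-07) and Cdkn1c by 0.82 ± 0.16 (adjusted p 1.2e-04). They were lower for Phlda2 at -5.58 ± 0.25 (adjusted p 1.3e-13), Ascl2 at -5.32 ± 0.35 (adjusted p 3.5e-11) and Slc22a18 at -3.06 ± 0.32 (adjusted p 3.0e-08). The Ascl2 value rests on 1 and 5 fragments in MEF and was -6.27 without the second MEF sample. Those of Phlda2 and Slc22a18 rest on 6 and 17 and on 5 and 14 fragments in MEF. Against c57/b6 iPSC the signs were the same, with 4.07 ± 0.12 for Igf2, 1.14 ± 0.18 for H19, 1.29 ± 0.16 for Cdkn1c, -5.69 ± 0.25 for Phlda2, -5.39 ± 0.33 for Ascl2 (-6.34 without the second MEF sample) and -3.34 ± 0.28 for Slc22a18. In these comparisons 75.8% and 78.8% of all genes were called. Genes around the IGF2 protein were mostly higher in MEF than in c57/b6 ESC, 11 of 13, with Igfbp5 at 32.7 FPKM in MEF and 0.473 FPKM in ESC, and Igf2r, the receptor that clears IGF2, was at 54.8 FPKM in MEF and 4.09 FPKM in ESC.

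The ratio of H19 to Igf2 FPKM, which share enhancers, was less spread than either level. It was 13.8 and 12.1 in G2, 10.4 and 10.6 in G5, and 8.51 and 9.26 in Nanog-null ESC. In WT piPSC it was 10.3 and 12.7, although both genes were near the bottom of their range, and it was 3.16 in WT 129/B6 iPSC and 5.13 and 4.83 in WT 129/B6 ESC. In c57/b6 it was 1.49 and 1.47 in MEF, 8.89 and 8.74 in iPSC, and 5.93 and 4.48 in ESC. MEF had the lowest ratio, and 129/B6 and c57/b6 ESC overlapped.

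Over the 17 samples, the genes most like each member were found by Pearson's r of log2(FPKM + 1) among 15297 genes, as a description in which replicates and strains are shared. H19 and Igf2 had r = 0.94 with each other. H19 was most like Cd63, Serpine2 and Rab20 (r = 0.99, 0.98 and 0.97), and Igf2 most like Shisa4, Dkk3 and Plcd1 (0.99, 0.98 and 0.98). Cdkn1c was most like Arfgap3, Shb and Baiap2 (0.94, 0.93 and 0.92), and its r with H19 was 0.11. Phlda2 was most like Nudt22, Spna1 and Clps (0.96, 0.93 and 0.91), Ascl2 most like Pga5, 1110038F14Rik and Aqp8 (0.95, 0.95 and 0.94), and Slc22a18 most like Cdc42ep5 and Ly6a (0.95 and 0.94).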

How the data were processed

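Per the submitters' processing notes, the reads were handled with CASAVA, Bowtie2 2.0.5, TopHat2 2.0.7 and Cuffdiff 2.1.1; mouse builds mm10 and NCBIM37 are both named with no role, so no gene coordinates are given from the tables. Per the file headers, the authors deposited for each sample a table of 28670 genes with Cuffdiff's estimated counts of fragments (97.5% to 98.8% of them whole within 0.01), the same fragments after internal and external scaling (a signal not used here), and FPKM. FPKM describes levels, and fragments were tested.

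Fragments were rounded and the 19 genes whose status was not OK in some sample were left out. edgeR 4.0.16 (R 4.3.3) with TMM scaling, its filter on low counts and a robust quasi-likelihood fit took all 17 samples in 9 groups of type and strain, and p-values were adjusted by Benjamini-Hochberg over 18077 genes. All 6 members with values passed the filter. SE is the log2 change over the root of F. Simulated counts were used to test the script. Alternatives were DESeq2 1.42.0 scaling and test, no filter, limma 3.58.1 on log2(FPKM + 1) for genes at FPKM 1 or more in 2 samples, a strain term, samples of the strain compared only, a replicate block and leaving out each sample. Total fragments were 7795960 to 43501951 per sample, and replicates of no group agreed within sampling noise.

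The members and the gene lists were chosen with earlier results of these data known. Listed genes were named where called in the comparison described, up to 4 by the largest change among those with a mean of at least 5 FPKM in a group. Tnfrsf22, with 2 entries, is not named with values. Plac1, Krt7, Cdx2, Gata3, Gcm1, Gata6, Afp, Apoa1, Tpbpa, Col1a1, Fn1, Twist1, Twist2, Prrx1, Pou5f1 and Zfp42 are markers given as levels only. So are Ttr, Cubn, Lama1, Pdgfra, Sox7, Eomes and Tfap2c. One gene among those most like Slc22a18 is not reported here.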

Additional observations from a re-analysis of the deposited data

Results flagged for a closer look

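A difference between strains in the change of WT iPSC against WT ESC, tested as an interaction in edgeR (129/B6 minus c57/b6, log2), brought up 4 of the 6 genes. The values were 1.23 ± 0.18 for Igf2 (adjusted p 7.5e-05), 1.77 ± 0.27 for Cdkn1c (adjusted p 1.5e-04), 1.82 ± 0.34 for Ascl2 (adjusted p 9.8e-04) and -1.38 ± 0.36 for Slc22a18 (adjusted p 0.011). The 129/B6 side rests on 1 iPSC sample at passage 6, while the c57/b6 iPSC were at passages 10 to 15, and strain and passage cannot be told apart here.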

How the results depend on the processing

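Of 870 recomputed log2 changes of single genes under the alternatives, 829 kept their side of the threshold and their direction where called, 12 passed it newly, 29 no longer passed it and none that was called reversed. All 6 calls held under every alternative run for Nanog-null ESC, both clones against WT iPSC, piPSC against ESC, MEF and the strains. For G5 against Nanog-null ESC, 4 of 6 genes were called, 5 with DESeq2's scaling, by DESeq2 and within the strain, where Igf2 was added, 3 by limma, 2 with a strain term and 2 to 4 on leaving out a sample (2 without the second Nanog-null ESC sample). For G2 against G5, 2 were called, 1 by limma, 1 with a strain term, 4 with the replicate block and 1 on leaving out any sample. For WT iPSC against ESC, 129/B6 had 4, or 0 with a strain term that gives both strains the same change, and 3 to 4 on leaving out a sample. In c57/b6 it was 0, 1 by DESeq2 and 0 to 1 on leaving out a sample. The cause of these shifts was not tested. Deviations of same-numbered samples from their group means had r = -0.0195 to 0.0530 over 22 pairs. In groups of 2 samples the deviations mirror each other, so each 129/B6 value occurs for 2 pairs. Whether the numbers stand for a shared batch is not stated and cannot be settled by these pairs. The block also gave Igf2 an adjusted p of 0.00216 and H19 one of 0.0542 in G5 against Nanog-null ESC, and Slc22a18 one of 0.0586 in the difference between strains in the iPSC against ESC change.

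Counts over all genes moved more. G2 against Nanog-null ESC had 3194 genes, 2024 by limma, 1530 with a strain term, 4868 within the strain, 5053 with the block and 1476 to 1707 on leaving out a sample. G5 against Nanog-null ESC had 4387, 2527 with a strain term and 2405 to 2771 on leaving out a sample. G2 against G5 had 2173, 1024 with a strain term, 3513 within the strain, 3626 with the block and 1127 to 1155 on leaving out a sample. WT iPSC against ESC had 5947 in 129/B6 (1624 with a strain term). In c57/b6 it had 48, 349 without the filter, 212 by DESeq2, 120 by limma, 1624 with a strain term, 3 within the strain, 310 with the block and 12 to 3546 on leaving out a sample. That difference between strains had 3253 genes and 5504 without the first c57/b6 ESC sample. The limma changes are on log2(FPKM + 1), which understates low genes, as for Ascl2 in MEF against c57/b6 ESC (-2.58, against -5.32 by edgeR on 1 and 5 fragments).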
